A study of Mus musculus with 16 samples.

Results

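Interferon-inducible GTPases are large guanine nucleotide binding proteins that cells make in response to interferons, above all interferon gamma. The 10 genes described here are Gbp2, Gbp3, Gbp5, Gbp6, Gbp7 and Gbp9 of the guanylate-binding proteins and Irgm1, Irgm2, Igtp and Iigp1 of the immunity-related GTPases. They were chosen by symbol, mapped to the mouse genes of the count table, and are 10 of its 33072 genes. Their mRNA was measured in 4T1 cells, the metastatic line, and in 67NR cells, the non-metastatic line, both from a spontaneous mammary carcinoma of BALB/c mice. Each line was cultured for 24 h in medium with serum and either vehicle (DMSO) or 15 µM CIX, a synthetic derivative of an omega-3 polyunsaturated fatty acid that inhibits the phospholipase cPLA2α. Each of the 4 groups had 4 biological replicates and 16 samples were measured in all, which are named by the running number in their title. They are cell cultures and lack the other cells of a tumor.

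Guanylate-binding proteins assemble on the membranes of vacuoles that hold microbes and on bacteria in the cytosol, where they help to break the membrane and to start inflammasome signaling. Immunity-related GTPases fall into effectors, which coat and disrupt the vacuole, and regulators of the Irgm type, which sit on the cell's own membranes and keep the effectors inactive there. Transcription of both families is switched on through the interferon-stimulated response element (ISRE) and the gamma-activated site (GAS), and interferon regulatory factors bind the ISRE.

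In vehicle treated cells all 10 genes were higher in each 4T1 sample than in any 67NR sample, which held for 22.4% of the genes with a count. In 4T1 all 10 were lower in each CIX sample than in any vehicle sample, which held for 14.2% of the genes with a count. The largest changes among the genes tested were those of Gbp3, Igtp, Irgm2 and Gbp2, which fell to between 4.98% and 8.62% of their level in vehicle treated 4T1 cells. In 67NR none of the 6 genes tested was called, where only 0.208% of all genes tested were called lower. There 4 of the 10 were lower in each CIX sample than in any vehicle sample, which held for 6.38% of the genes with a count. The median log2 fold change of the 6 was -0.45, as compared to -0.01 over all genes tested. The response differed between the lines for 5 genes, as compared to 3.05% of the genes tested. After CIX the summed level of the 10 genes was about the same in both lines.

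The genes lie in a few clusters of the mouse genome (build GRCm38, GENCODE annotation), and each is protein coding. Gbp5, Gbp7, Gbp3 and Gbp2 stand in this order on chromosome 3 within 144.0 kb, with Gbp2 at chr3:142620602-142638008 and Gbp3 at chr3:142560026-142573209. Gbp9 and Gbp6 are on chromosome 5 within 216.1 kb. Irgm1 (chr11:48861968-48871683) is on chromosome 11, where Igtp (chr11:58199556-58207591) and Irgm2 (chr11:58199618-58222782) also lie, and Iigp1 is on chromosome 18. The Igtp and Irgm2 annotations overlap on the same strand. The guanylate-binding proteins have 589 to 638 residues and the immunity-related GTPases 407 to 423. A CaaX box, the signal at the end of a protein for attachment of a lipid, was found in Gbp2 and Gbp5 and in no other of the 10 proteins. The guanylate-binding proteins share 45.9% (Gbp5 and Gbp6) to 84.8% (Gbp6 and Gbp9) of their residues with each other, and Irgm1, Irgm2 and Igtp share 47.7% to 53.1%. Iigp1 shares 28.3% to 30.8% with these 3, little more than its 22.3% to 27.1% with the guanylate-binding proteins.

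Similarity between genes bears on the measurement, since a read in a shared stretch can be assigned to the wrong gene. Of the stretches of 31 bases in the transcripts of Gbp6, 74.2% also occurred in another gene, most of them in Gm43302, so that the level of Gbp6 is uncertain. The share was 18.3% in Gbp9, 15.9% in Igtp (all shared with Irgm2), 14.7% in Gbp7 and 10.7% in Irgm2. It was between 2.21% (Irgm1) and 6.90% (Iigp1) in the other 5 genes.

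The sequence before the RefSeq transcription start of these genes is shown because ISRE and GAS elements were searched for there. RefSeq promoters (build GRCm38.p6, from 250 bases before to 50 bases after the start) were given for 7 of the 10 genes, Gbp2, Gbp3, Gbp5, Gbp7, Irgm1, Irgm2 and Igtp, and were searched on both strands for the ISRE core GAAANNGAAA and the GAS core TTCNNNGAA. The stretch around the matches is printed 5′ to 3′ on the strand of the gene, with the matches in capitals. An ISRE core on the other strand reads TTTCNNTTTC, and matches that overlap run together. The windows are chr3:142620586-142620631 (Gbp2), chr3:142559979-142560034 (Gbp3), chr3:142530210-142530312 (Gbp7), chr3:142496684-142496910 (Gbp5), chr11:48871428-48871457 on the minus strand (Irgm1), chr11:58199491-58199551 (Igtp) and chr11:58214882-58214942 (Irgm2), on the plus strand where no strand is given.
Gbp2: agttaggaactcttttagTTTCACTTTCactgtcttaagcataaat
Gbp3: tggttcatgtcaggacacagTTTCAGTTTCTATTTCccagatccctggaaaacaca
Gbp7: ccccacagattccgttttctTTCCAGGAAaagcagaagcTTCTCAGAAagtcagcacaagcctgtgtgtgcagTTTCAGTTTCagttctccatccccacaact
Gbp5: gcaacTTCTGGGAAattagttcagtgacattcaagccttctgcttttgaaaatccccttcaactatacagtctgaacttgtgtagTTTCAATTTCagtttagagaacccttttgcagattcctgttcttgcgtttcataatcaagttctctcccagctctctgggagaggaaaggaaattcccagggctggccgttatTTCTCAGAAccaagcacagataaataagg
Irgm1: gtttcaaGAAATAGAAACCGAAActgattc
Igtp: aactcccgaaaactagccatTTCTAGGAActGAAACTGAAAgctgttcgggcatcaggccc
Irgm2: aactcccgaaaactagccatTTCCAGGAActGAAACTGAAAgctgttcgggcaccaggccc

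An ISRE core was found in all 7 genes, as compared to 3.44% of the 32851 promoters of the same length in the table. Gbp3 has a second annotated start, and its promoter there held no match. In Gbp3 and Irgm1 a pair of ISRE cores overlapped. A GAS core was found in 4 of the 7, Gbp5, Gbp7, Igtp and Irgm2, as compared to 8.30% of all promoters, and 0.454% of all promoters held both cores. Every ISRE match except that of Gbp5 began between 24 and 64 bases before the start, and that of Gbp5 began 165 bases before it. The windows of Igtp and Irgm2 were alike in 59 of 61 bases, and counted from 1 at the 5′ end of the window they differed, from Igtp to Irgm2, by T24C inside the GAS core and T54C outside the matches. The start is that of RefSeq. In GENCODE the windows of Irgm1, Irgm2 and Gbp5 lie inside the annotated gene, and those of Gbp2 and Gbp3 reach into it. Bases in exons made up 30 of 30 window bases in Irgm1, 30 of 46 in Gbp2, 11 of 227 in Gbp5 and 9 of 56 in Gbp3. These are matches of letters, and binding was not measured in this study.

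**Figure D1:**
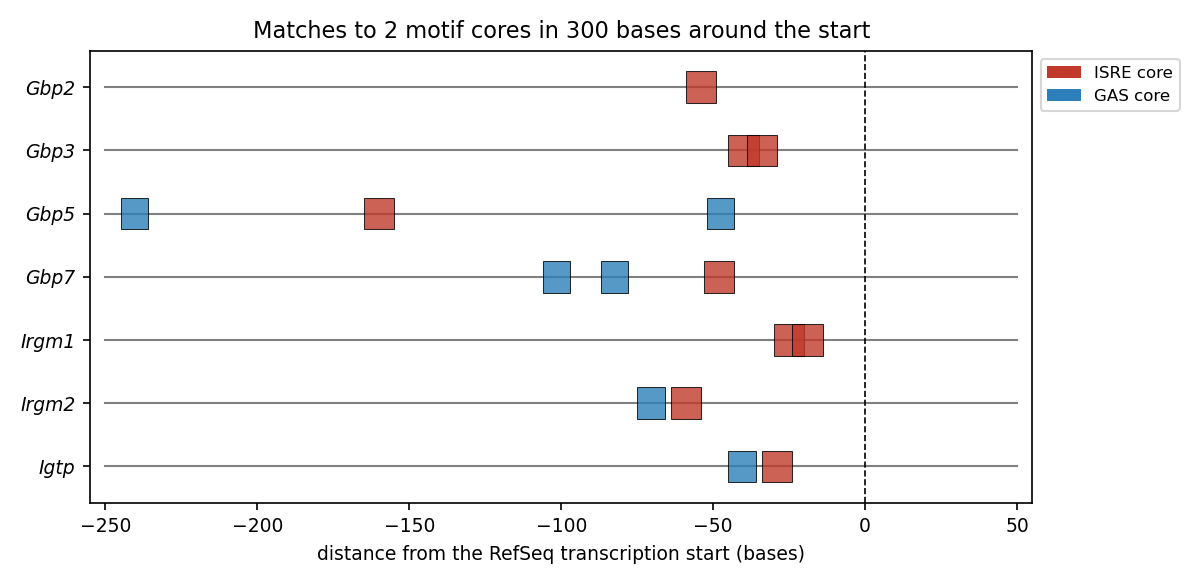
Positions of ISRE core (red) and GAS core (blue) matches, in bases from the RefSeq transcription start (dashed line at 0), in the 300 bases searched for each of the 7 genes with a promoter entry. Most ISRE cores lie within 64 bases before the start, and the one of Gbp5 lies farther away.

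The 16 libraries held between 21715700 and 29450629 estimated counts, so that 3 counts, taken as the smallest detectable level, correspond to 0.102 to 0.138 CPM, the count scaled to an equal library size. Levels of a gene across samples are given as CPM after TMM normalization, a scaling that evens out differences in library composition, and levels of different genes are compared as TPM, which also divides by transcript length. The 6 epithelial markers examined summed to between 2601 and 3035 TPM in 4T1 and to between 0.822 and 4.47 TPM in 67NR, where they were nearly absent although the label names the line as a carcinoma. The 8 fibroblast and mesenchymal markers, of which Vim made up most, summed to 943 to 1121 TPM in vehicle treated and 2077 to 2402 TPM in CIX treated 4T1. In 67NR they summed to 3690 to 4672 TPM with vehicle and 6171 to 7005 TPM with CIX, while Dcn and Lum stayed under 1 CPM. This sum was thus higher with CIX in both lines without overlap, and its part in the results was not tested. Vim made up most of it, and single markers differed. With CIX Pdgfrb was lower in 67NR, at 28.7 to 34.9 CPM as compared to 41.9 to 60.3 CPM. Pdgfra was higher in 67NR, at 193 to 262 CPM as compared to 125 to 134.5 CPM, and overlapped between the groups in 4T1. The 5 endothelial markers summed to at most 1.53 TPM in any sample. Of 13 leukocyte and macrophage markers, Adgre1, Tyrobp and Nkg7 had no count in any sample and 9 stayed under 1 CPM throughout. The summed level of these 13 was 42.2 to 57.8 TPM in vehicle treated 67NR, 90.8 to 96.5 in CIX treated 67NR, 119 to 139 in vehicle treated 4T1 and 200 to 276 TPM in CIX treated 4T1, mostly from Cd68 and Cd14. Ptprc, which marks leukocytes, was at 0.947 to 1.44 CPM (at most 35 counts) in vehicle treated 4T1. It was at 0.129 to 0.929 CPM in CIX treated 4T1 and at most 0.124 CPM in 67NR. The epithelial marker Epcam was also highest in vehicle treated 4T1, at 311 to 318 CPM. It was at 174.5 to 202.5 CPM in CIX treated 4T1 and at most 0.317 CPM in 67NR. Cd68 went the other way in 4T1, with 51.3 to 87.5 CPM with vehicle and 131.5 to 197.7 CPM with CIX. The part of these markers in the results was not tested.

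**Figure D2:**
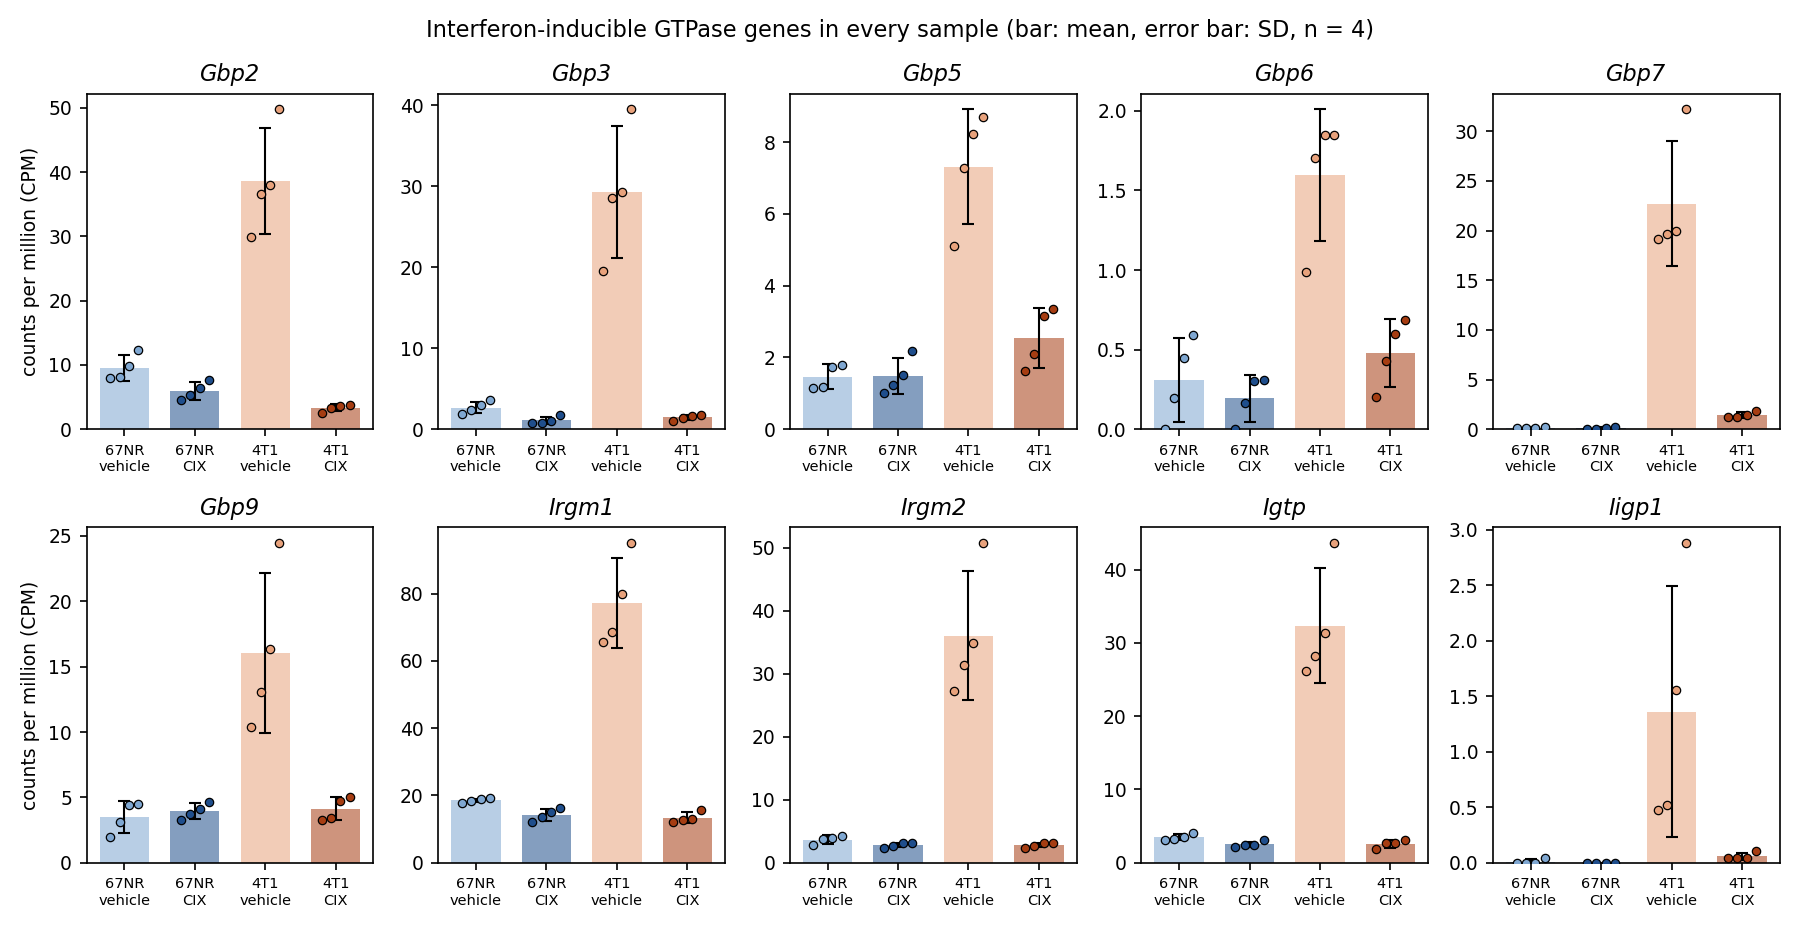
CPM of the 10 GTPase genes in each of the 16 samples, with a panel and its own axis from 0 for each gene. Bars are means of 4 samples, error bars the SD and points single samples. In every panel the 4 vehicle treated 4T1 samples lie above all samples of the other groups.

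The levels in vehicle treated 4T1 cells differed between the genes. Irgm1 had the highest TPM at 37.9 ± 7.87 (SD, n = 4), followed by Gbp2 at 30.6 ± 7.46, Gbp3 at 25.7 ± 8.06, Igtp at 23.1 ± 6.49 and Irgm2 at 13.9 ± 4.49. Gbp7 followed at 7.50 ± 2.37 TPM, Gbp9 at 6.82 ± 2.85, Gbp5 at 3.14 ± 0.675, Iigp1 at 0.792 ± 0.656 and Gbp6 at 0.580 ± 0.1495. The ranges of neighbors in this order overlapped except between Gbp9 and Gbp5 and between Gbp5 and Iigp1. In vehicle treated 67NR cells Irgm1 (8.52 ± 0.339 TPM) and Gbp2 (7.13 ± 1.60 TPM) were again the highest, and Gbp7 (0.0486 ± 0.0132 TPM) and Iigp1 were the lowest. The order thus differed most for Gbp7, which was the sixth in vehicle treated 4T1 and the ninth in vehicle treated 67NR.

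The summed TPM of the 10 genes was 23.6 ± 2.54 in vehicle treated 67NR, 16.7 ± 0.736 in CIX treated 67NR, 150 ± 38.0 in vehicle treated 4T1 and 15.8 ± 0.708 in CIX treated 4T1 (SD, n = 4). It ranged from 118 to 205 TPM in vehicle treated 4T1 and from 14.8 to 16.5 TPM after CIX, and in 67NR from 21.6 to 27.1 and from 16.1 to 17.8 TPM. The ranges of the CIX treated groups of both lines overlapped. Sample 15, a vehicle treated 4T1 sample, had the largest sum and was the highest of its group for 7 of the 10 genes, as compared to 23.2% of all genes tested in 4T1. As the values come from bulk cultures, fewer cells that make these mRNAs and less of the mRNA in each cell cannot be told apart.

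**Figure D3:**
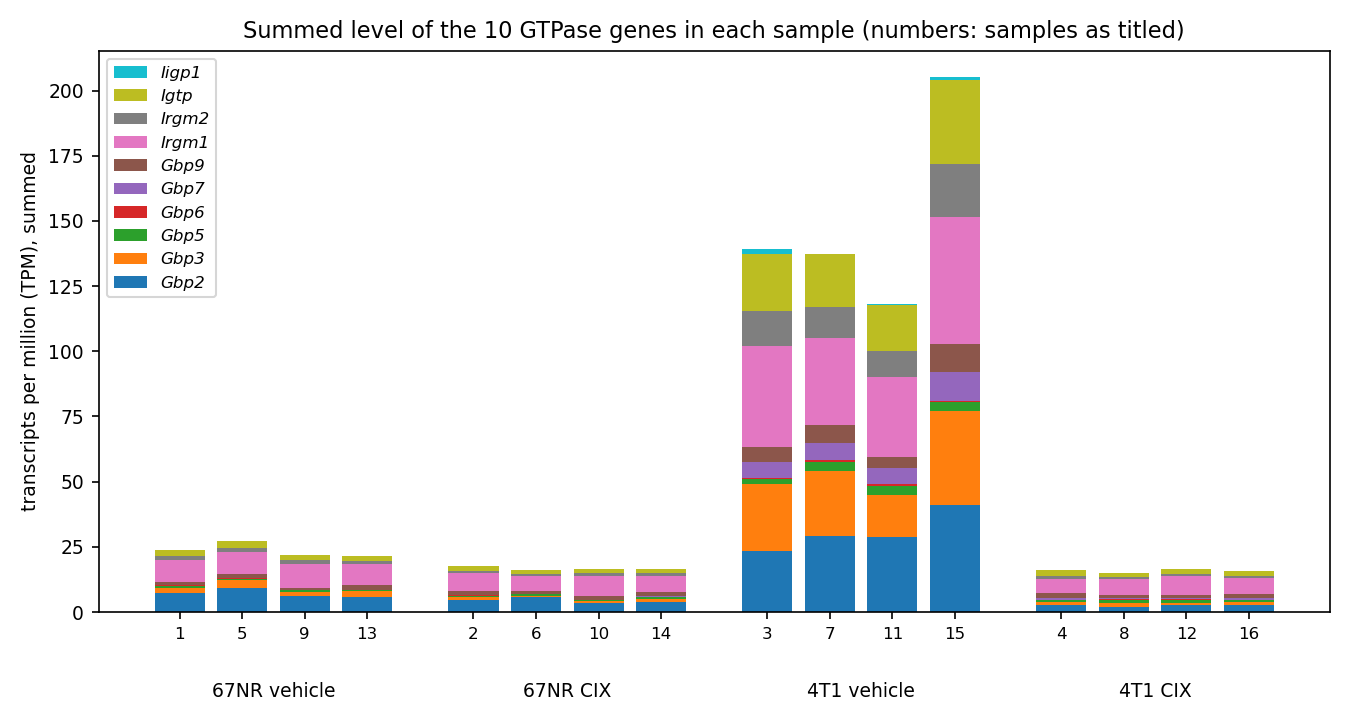
Summed TPM of the 10 GTPase genes in each of the 16 samples, divided by gene and grouped by cell line and treatment. The vehicle treated 4T1 samples reach 118 to 205 TPM, and all samples of the other groups stay at or below 27.1 TPM.

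The response to CIX in 4T1 was tested with limma-voom in the 8 samples of this line, for the 7 GTPase genes that passed a filter on low levels. A gene was left out if its TPM was below 1 in more than 3 of the 8 samples, and changes with an adjusted p-value (Benjamini-Hochberg) under 0.001 were called. Of the 7 genes tested 5 fell, Gbp2, Gbp3, Irgm1, Irgm2 and Igtp, as compared to 3.99% of the 11659 genes tested that were called lower. The median log2 fold change of the 7 was -3.54, and that of all genes tested was -0.01. All 10 genes had every CIX sample below every vehicle sample, which held for 14.2% of the genes with a count in a 4T1 sample.

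Gbp2, a guanylate-binding protein that carries a lipid anchor and gathers on vacuoles, was at 29.9, 36.7, 37.9 and 49.7 CPM in vehicle treated 4T1 and at 3.63, 2.53, 3.72 and 3.38 CPM with CIX. The highest CIX sample was thus far below the lowest vehicle sample. The log2 fold change was -3.54 ± 0.23 (SE), that is 8.62% of the vehicle level (limma-voom adjusted p = 4.25e-05). Gbp3, which like most of its family is recruited to the vacuole of Toxoplasma, showed the largest change of the 7. Its 4 vehicle samples were at 29.3, 28.6, 19.6 and 39.5 CPM and its CIX samples at 1.41, 1.80, 1.00 and 1.61 CPM. The groups were well apart, and its change of -4.33 ± 0.34 on the log2 scale (limma-voom adjusted p = 5.32e-05) was the 10th lowest of the 11659 genes tested.

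Gbp5, which takes part in inflammasome assembly, and Gbp9 had smaller differences and were not called. Gbp5 was at 5.10, 8.69, 8.21 and 7.26 CPM with vehicle and at 1.61, 3.34, 3.14 and 2.09 CPM with CIX, and its log2 fold change was -1.56 ± 0.28 (limma-voom adjusted p = 0.00204). Gbp9 was at 13.1, 16.4, 10.4 and 24.5 CPM with vehicle and at 5.01, 3.30, 3.43 and 4.74 CPM with CIX, and its log2 fold change was -1.93 ± 0.31 (limma-voom adjusted p = 0.00114). In both the groups did not overlap. Both were called by DESeq2, with all 16 samples in 1 fit and with sample quality weights, and Gbp9 also by edgeR's quasi-likelihood test. These settings also called more genes in all, except edgeR, with 26.6% of all genes tested for DESeq2, 8.86% for edgeR, and 2679 and 2523 genes for the single fit and the quality weights as compared to 1089. Both genes were also called with a replicate block by sets of 4 running sample numbers, which was chosen after seeing the data.

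Irgm1, a regulator of the immunity-related GTPases that also acts in autophagy and mitochondrial quality control, had the highest level and the smallest change of the 5 called genes. Its samples were at 79.9, 68.6, 65.6 and 95.01 CPM with vehicle and at 12.1, 12.7, 15.8 and 12.9 CPM with CIX, and the log2 fold change was -2.54 ± 0.16 (limma-voom adjusted p = 4.25e-05). The groups were far apart, and CIX left 17.2% of the vehicle level. Irgm2 and Igtp, the other regulators of this type, changed by nearly the same amount as each other. Irgm2 was at 34.9, 31.3, 27.2 and 50.7 CPM with vehicle and at 3.19, 2.66, 3.07 and 2.41 CPM with CIX (log2 fold change -3.64 ± 0.27, limma-voom adjusted p = 4.72e-05). Igtp was at 31.4, 28.2, 26.1 and 43.6 CPM with vehicle and at 3.11, 1.84, 2.64 and 2.73 CPM with CIX (log2 fold change -3.65 ± 0.26, limma-voom adjusted p = 4.45e-05). In both, sample 15 was the highest vehicle sample, and the groups did not overlap. As these genes share part of their sequence, their values are not independent of each other.

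Gbp7, Gbp6 and Iigp1 were left out by the filter. Gbp7 reached 1 TPM in the 4 vehicle samples alone, Iigp1 in 1 vehicle sample and Gbp6 in none. Gbp7 was at 19.2, 19.6, 19.9 and 32.2 CPM in vehicle treated 4T1 and at 1.82, 1.24, 1.22 and 1.41 CPM with CIX, a separation as wide as that of the called genes. The 4 vehicle samples held 2162 counts and the 4 CIX samples 143, a ratio of 16.1 (95% interval 13.6 to 19.2, which covers counting error only). Fitted with no filter, it had a change of -3.93 ± 0.28 on the log2 scale (limma-voom adjusted p = 3.01e-05), while Iigp1 at -3.81 ± 0.70 (adjusted p = 0.00260) and Gbp6 at -1.74 ± 0.41 (adjusted p = 0.0110) were not called in this fit.

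Iigp1, the effector of the group, was at 2.88, 0.524, 0.473 and 1.56 CPM with vehicle, which corresponds to 11 to 70 estimated counts, and at 1 to 3 estimated counts in each CIX sample. The vehicle samples spread widely, and all were above the CIX samples. Pooled over the samples the counts were 131 and 6, a ratio of 23.2 with a counting interval of 10.4 to 64.5. Gbp6 was at 0.988, 1.70, 1.85 and 1.85 CPM with vehicle and at 0.686, 0.6001, 0.429 and 0.201 CPM with CIX. Gbp6 shares most of its sequence with Gm43302. Summed with Gm43302, it was at 5.68 to 15.8 CPM with vehicle and at 0.764 to 1.74 CPM with CIX. The groups were also apart in this sum, which does not depend on how reads were divided between both genes. Reads can still be divided with other genes, and this was not tested. Of the stretches of 31 bases in Gbp10, 80.8% also occurred in Gbp6. In an exact 2-sided permutation test on log2(CPM + 0.5), Gbp7, Iigp1 and Gbp6 each reached p = 0.0286 (n = 4 per group), the smallest p-value that this design allows.

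In 67NR the response was tested in the same way, for 6 of the 10 genes. None of the 6 was called by limma-voom, edgeR or DESeq2, and 0.208% of the 11560 genes tested were called lower by limma-voom. Of the 6, 4 had an unadjusted p-value below 0.05, as compared to 32.8% of all genes tested, of which edgeR called 0.398% and DESeq2 8.98% in either direction. The median log2 fold change of the 6 was -0.45, as compared to -0.01 over all genes tested. All CIX samples were below all vehicle samples for 4 of the 10 genes, Gbp2, Gbp3, Irgm1 and Igtp, and this held for 6.38% of the genes with a count in a 67NR sample. Gbp2 was at 9.86, 12.3, 7.96 and 8.17 CPM with vehicle and at 6.36, 7.72, 4.56 and 5.31 CPM with CIX. The gap between the groups was small, and the log2 fold change was -0.69 ± 0.20 (limma-voom adjusted p = 0.0432).

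Gbp3 was at 2.38, 3.56, 1.86 and 2.94 CPM with vehicle and at 1.77, 0.743, 0.821 and 1.05 CPM with CIX in 67NR, with a difference of -1.31 ± 0.32 on the log2 scale (limma-voom adjusted p = 0.0252), the largest of the 6. Irgm1 varied little among vehicle treated 67NR samples, which were at 18.4, 17.8, 19.1 and 18.8 CPM, and was at 15.1, 12.1, 16.2 and 13.5 CPM with CIX. Its log2 fold change was -0.41 ± 0.11 (limma-voom adjusted p = 0.0286). The groups of both genes lay next to each other without overlap. On the log2 scale Igtp differed by -0.48 ± 0.16 (limma-voom adjusted p = 0.0752) and Irgm2 by -0.39 ± 0.18 (limma-voom adjusted p = 0.167), and the 95% confidence interval of Irgm2 ran from -0.79 to 0.02. For Gbp9 the log2 fold change was 0.25 ± 0.28 (limma-voom adjusted p = 0.584), and its groups overlapped.

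The 4 genes not tested in 67NR were low in all its samples. Gbp5 was at 1.16 to 1.78 CPM with vehicle and at 1.00 to 2.18 CPM with CIX (exact 2-sided permutation test, p = 1.0, n = 4 per group). Gbp7 had 14 counts over the 4 vehicle samples and 11 over the 4 CIX samples, and Gbp6 had 30 and 19. Iigp1 had 1 count in 1 of the 8 samples and none in the others. For Gbp7, Gbp6 and Iigp1 a difference could not be detected at this depth (exact 2-sided permutation tests, p = 0.571, 0.514 and 1.0, n = 4 per group).

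**Figure D4:**
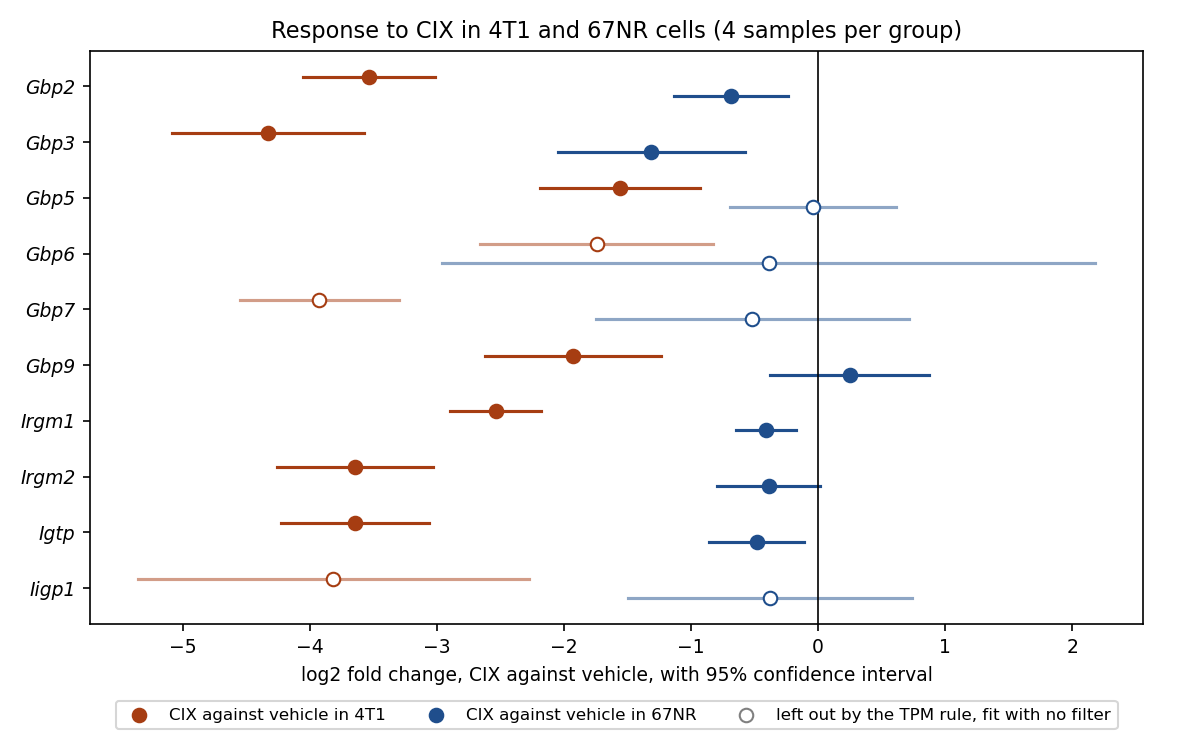
Log2 fold change of the 10 GTPase genes with CIX against vehicle in 4T1 (brown) and 67NR (blue), with lines for the 95% confidence interval from limma-voom with 4 samples per group. Open points are genes left out by the TPM rule, fitted without a filter. All intervals of 4T1 lie below 0, and those of 67NR are nearer to 0 or include it.

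Whether the response differed between the lines was tested with an interaction term over all 16 samples, which include those of both comparisons above. Of the 7 genes tested 5 responded more strongly in 4T1, Irgm2, Igtp, Gbp3, Gbp2 and Irgm1, as compared to 3.05% of 12605 genes tested that were called lower. The response in 4T1 minus that in 67NR on the log2 scale was -3.26 ± 0.40 for Irgm2 (limma-voom adjusted p = 3.44e-05), -3.16 ± 0.36 for Igtp (adjusted p = 2.25e-05), -3.02 ± 0.55 for Gbp3 (adjusted p = 0.000817), -2.85 ± 0.33 for Gbp2 (adjusted p = 2.46e-05) and -2.13 ± 0.20 for Irgm1 (adjusted p = 4.92e-06). Gbp9 (-2.18 ± 0.47, limma-voom adjusted p = 0.00262) and Gbp5 (-1.50 ± 0.44, limma-voom adjusted p = 0.0175) did not pass the threshold. When each sample was left out in turn, the call of Gbp3 was lost in 14 of 16 fits, with limma-voom adjusted p-values of at most 0.00295, and it was kept without vehicle treated 4T1 sample 11 or 15. Without the filter the difference in response was -3.41 ± 0.67 for Gbp7 (limma-voom adjusted p = 0.00207), -3.44 ± 0.84 for Iigp1 (adjusted p = 0.00997) and -1.36 ± 1.21 for Gbp6 (adjusted p = 0.540), and none of the 3 was called. Gbp9 was called when vehicle treated 4T1 sample 11 was left out (limma-voom adjusted p = 0.000909). It was also called by DESeq2 (DESeq2 adjusted p = 4.83e-06), with sample quality weights and with a replicate block by sets of 4 running sample numbers.

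Between the lines, with vehicle, 6 of the 10 genes passed the filter, and all 6 were higher in 4T1, as compared to 20.4% of 11040 genes tested that were called higher. Their median log2 difference was 2.69, as compared to -0.01 over all genes tested. The 4T1 samples were above all 67NR samples for all 10 genes, which held for 22.4% of the genes with a count in a vehicle sample. This comparison shares the vehicle treated 4T1 samples with the comparison of CIX and vehicle, so that a low or high value in these samples enters both. The log2 difference, 4T1 minus 67NR, was 3.44 ± 0.33 for Gbp3 (limma-voom adjusted p = 1.49e-05), 3.25 ± 0.28 for Irgm2 (adjusted p = 7.61e-06) and 3.17 ± 0.24 for Igtp (adjusted p = 3.46e-06). It was about 1 log2 unit smaller for the others, at 2.21 ± 0.37 for Gbp9 (limma-voom adjusted p = 0.000578), 2.03 ± 0.14 for Irgm1 (adjusted p = 2.27e-06) and 2.00 ± 0.20 for Gbp2 (adjusted p = 2.01e-05). When each sample was left out in turn, the call of Gbp9 was lost in 6 of 8 fits (limma-voom adjusted p at most 0.00211) and kept in the other 2.

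Of the genes that were not tested, Gbp7 had 2162 counts over the 4 vehicle treated 4T1 samples and 14 over the 4 vehicle treated 67NR samples, a ratio of 157 with a counting interval of 93.4 to 288. Iigp1 had 131 counts and 1 count, a ratio of 133 with an interval of 23.5 to 5304 that includes the ratio of Gbp7. Gbp6 had 151 and 30, a ratio of 5.12 with an interval of 3.44 to 7.85, and Gbp5 was at 5.10 to 8.69 CPM as compared to 1.16 to 1.78 CPM. Each of these 4 genes reached p = 0.0286 in the exact 2-sided permutation test (n = 4 per group).

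With CIX the lines were much closer. In the 4 genes that passed the filter, Gbp2, Gbp9, Irgm1 and Igtp, no difference was called by limma-voom or edgeR, 1 had an unadjusted p-value below 0.05, and DESeq2 called 1, Gbp2, as compared to 67.2% and 48.2% of all genes tested, of which edgeR called 33.4%. Over 10931 genes tested 18.0% were called higher and 16.3% lower in 4T1. The log2 difference was 0.01 for Igtp (95% confidence interval -0.49 to 0.50), 0.03 for Gbp9 (-0.44 to 0.49) and -0.10 for Irgm1 (-0.40 to 0.20). A difference of up to about these bounds cannot be told apart from none. Gbp2 was at 2.53 to 3.72 CPM in 4T1 and 4.56 to 7.72 CPM in 67NR, without overlap and in the opposite direction to that with vehicle, with a log2 difference of -0.85 ± 0.22 (limma-voom adjusted p = 0.00674). Gbp7 stayed higher in 4T1, at 1.22 to 1.82 CPM as compared to 0.0413 to 0.261 CPM (exact 2-sided permutation test, p = 0.0286, n = 4 per group), and it was called without the filter (limma-voom adjusted p = 5.57e-05). Gbp3, Gbp5, Gbp6 and Irgm2, which the filter left out here, overlapped between the lines (exact 2-sided permutation tests, p = 0.257, 0.0857, 0.0857 and 0.914, n = 4 per group). Iigp1 had 6 counts over the 4 CIX treated 4T1 samples and none in CIX treated 67NR, both at or under 3 counts in each library.

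Other GTPases of these families and the genes that act before and after them were examined as lists, of which the counts are to be read against all genes tested. In 4T1, in either direction, limma-voom called 9.34% of all genes tested, edgeR 8.86% and DESeq2 26.6%, and 51.2% had an unadjusted p-value below 0.05. Of 21 other interferon-inducible GTPases 3 passed the filter in 4T1, and 1 fell. All 3 had an unadjusted p-value below 0.05, and edgeR and DESeq2 each called 2. Gbp2b, the neighbor of Gbp2 that is also known as Gbp1, went from 29.6 ± 6.26 CPM to 2.72 ± 0.510 CPM (log2 fold change -3.45 ± 0.23, limma-voom adjusted p = 4.25e-05). Its response was stronger in 4T1 than in 67NR by 2.77 ± 0.32 on the log2 scale (limma-voom adjusted p = 2.33e-05), at a log2 fold change in 67NR of -0.68 ± 0.17. Ifi47, an effector, was at 0.645 to 2.01 CPM in vehicle treated 4T1 and 0.0715 to 0.161 CPM with CIX, and Gm12250, known as Irgb10, was at 0.262 to 0.741 and 0.0857 to 0.241 CPM, so that both were low in all groups.

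**Figure D5:**
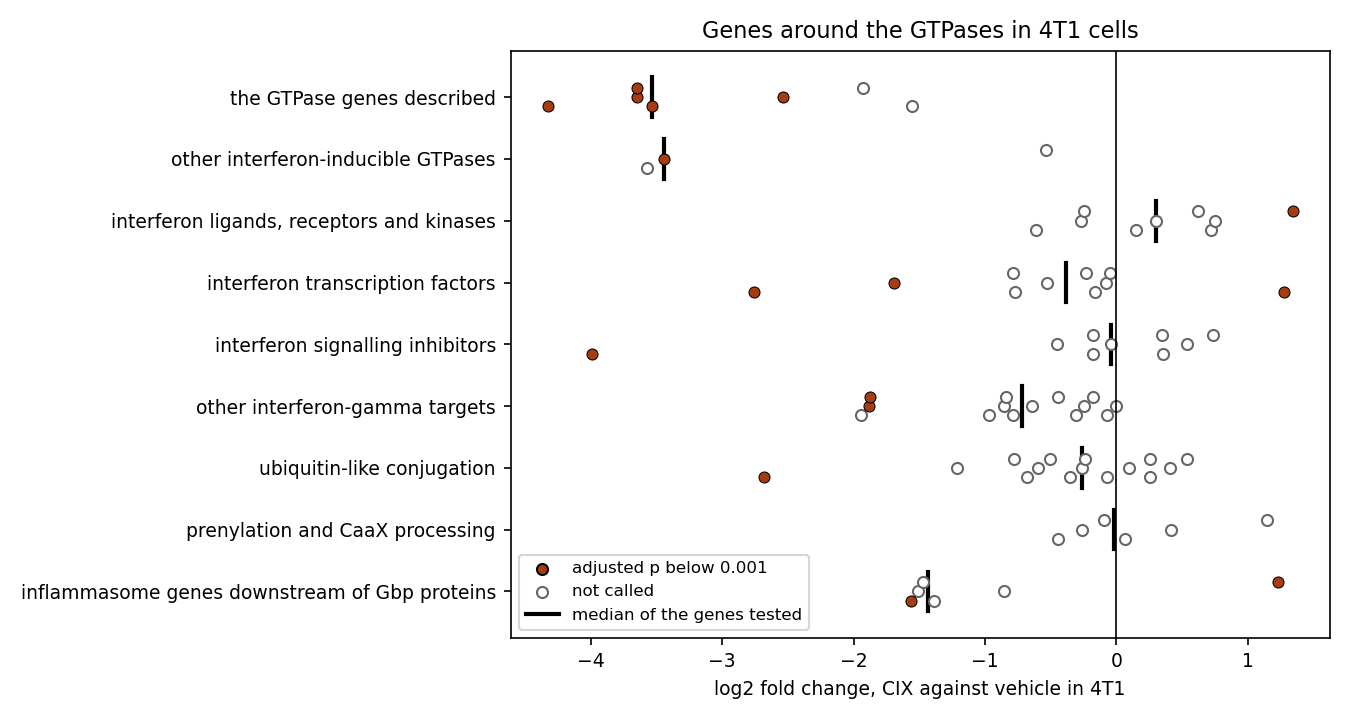
Log2 fold change with CIX against vehicle in 4T1 for the tested genes of the GTPase group and of 8 lists around it. Filled points were called by limma-voom at an adjusted p-value below 0.001, open points were not, and black bars are medians. The medians of the GTPase lists lie near -3.5 and those of the receptors, inhibitors and prenylation enzymes between -0.04 and 0.31.

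Among ligands, receptors and kinases of the interferon pathway 9 of 11 were tested in 4T1, 1 rose and none fell, and the median log2 fold change was 0.31. Ifnar2, a chain of the receptor for type I interferons, rose by 1.34 ± 0.14 on the log2 scale (limma-voom adjusted p = 0.000161). The chains of the interferon gamma receptor were present in both lines. Ifngr1 was at 38.4 ± 10.4 CPM with vehicle and 25.4 ± 6.28 CPM with CIX in 4T1 (limma-voom adjusted p = 0.0596), and Ifngr2 was at 69.9 ± 2.32 and 59.2 ± 8.53 CPM (adjusted p = 0.0868). Ifngr2 was higher in 4T1 than in 67NR with vehicle by 2.16 ± 0.11 on the log2 scale (limma-voom adjusted p = 5.22e-07). The ligand itself, Ifng, which was named after its values were seen, had no count in the 8 samples of 4T1 and was at 0.554 to 1.11 CPM in vehicle treated and 1.32 to 1.46 CPM in CIX treated 67NR.

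Of 12 transcription factors of the pathway 10 were tested in 4T1, 2 fell and 1 rose, and the median log2 fold change was -0.38. Irf7 and Irf9, which act with type I interferon signaling, fell, by 2.76 ± 0.33 and by 1.69 ± 0.17 on the log2 scale (limma-voom adjusted p = 0.000276 and 0.00014). Irf3, which induces interferon genes, rose by 1.28 ± 0.15 (limma-voom adjusted p = 0.000297). Irf1, which binds the ISRE, did not pass, at 94.2 ± 13.2 CPM with vehicle and 66.1 ± 10.8 CPM with CIX in 4T1 (limma-voom adjusted p = 0.0163). A difference in its response between the lines was not detected, at -0.06 ± 0.21 on the log2 scale (limma-voom adjusted p = 0.853). Stat2, which acts with Irf9 in type I interferon signaling, differed in its response by -1.40 ± 0.22 (limma-voom adjusted p = 0.000253).

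Of 9 inhibitors of the pathway, all tested in 4T1, 1 fell, Usp18, which restrains the type I interferon receptor and removes ISG15 (log2 fold change -3.99 ± 0.53, limma-voom adjusted p = 0.000471). Of 20 other targets of interferon gamma 14 were tested, 2 fell and none rose, and the median log2 fold change was -0.72. These were Psmb10, a subunit of the immunoproteasome, at -1.88 ± 0.18 (limma-voom adjusted p = 0.000106), and Lgals3bp, a secreted galectin-binding protein, at -1.87 ± 0.14 (limma-voom adjusted p = 4.45e-05). Both responded more strongly in 4T1 than in 67NR (limma-voom adjusted p = 0.000204 and 2.54e-05).

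Other lists hold genes that act with or after the GTPase proteins. Of 15 genes of ubiquitin-like conjugation, the system that places the GTPases at vacuoles, 1 fell in 4T1, the ubiquitin ligase Trim21, by 2.68 ± 0.18 on the log2 scale (limma-voom adjusted p = 4.25e-05). In this list 11 of the 15 had an unadjusted p-value below 0.05 and DESeq2 called 5, as compared to 51.2% and 26.6% of all genes tested, and the median log2 fold change was -0.26. Of 6 genes of prenylation and CaaX processing, which attach and trim the lipid anchor of Gbp2 and Gbp5, none was called in 4T1 by limma-voom or edgeR, 1 was called by DESeq2 and 3 had an unadjusted p-value below 0.05. Of 8 inflammasome genes 6 were tested, and their median log2 fold change was -1.43. Of the 6, 5 were below 0, all 6 had an unadjusted p-value below 0.05 (51.2% of all genes) and DESeq2 called 5 (26.6% of all genes), whereas limma-voom called 1 lower and 1 higher. Casp1, the inflammasome protease, went from 28.9 ± 3.31 CPM to 9.97 ± 1.32 CPM (log2 fold change -1.56 ± 0.15, limma-voom adjusted p = 0.000105), and Gsdmd, the pore protein that it cleaves, went from 12.2 ± 2.58 to 29.0 ± 3.94 CPM (log2 fold change 1.23 ± 0.18, limma-voom adjusted p = 0.000682). Casp4, which like Casp1 can cleave Gsdmd and was named after its values were seen, lay just outside the threshold at -1.47 ± 0.23 (limma-voom adjusted p = 0.00105). In the other lists an unadjusted p-value below 0.05 was found for 7 of the 9 ligands, receptors and kinases, 6 of the 10 transcription factors, 4 of the 9 inhibitors and 8 of the 14 other targets, of which DESeq2 called 3, 4, 2 and 5. In 67NR no gene of the 8 lists was called by limma-voom or edgeR, while DESeq2 called 1 of the ligands, receptors and kinases, 2 of the transcription factors, 1 of the other targets and 3 of the conjugation genes, as compared to 8.98% of all genes tested in 67NR.

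The genes with the pattern most like the GTPases were found by the distance of their centered log2 CPM over the 16 samples from the median of the 7 GTPase genes tested in the interaction. The distance is given as a root mean square difference in log2 units, with a median of 1.28 over 12598 genes and of 0.216 to 0.622 for the 7 genes themselves. The 5 nearest were Gbp2b (0.262), Samd9l (0.371), Ifi27 (0.382), Tor1aip1 (0.392) and Cyb561d2 (0.400). Samd9l, an interferon-inducible antiviral gene, and Ifi27, an interferon-inducible gene, had log2 fold changes of -2.81 ± 0.26 and -2.08 ± 0.12 with CIX in 4T1 and of 0.04 ± 0.29 and -0.63 ± 0.09 in 67NR. Tor1aip1 encodes a protein of the inner nuclear membrane, and its log2 fold change was -1.89 ± 0.16 in 4T1 and -0.42 ± 0.10 in 67NR. For Cyb561d2, a member of the cytochrome b561 family, they were -2.08 ± 0.16 and -0.33 ± 0.20.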

How the data were processed

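RNA of 4T1 and 67NR cells was sequenced from strand-specific mRNA libraries run on 1 flow cell. The authors quantified reads with Salmon (version 0.12 per the labels), summed transcripts to genes and deposited estimated counts without normalization. The paper names Ensembl GRCm38 and the labels list GRCh38, but the gene identifiers are mouse, so GRCm38 was used. Only 0.0436% of the values above 0 were whole within 1e-06, and the estimated counts were rounded. Whether they were scaled by transcript length or from abundance when summed to genes is not given in the sources used here, and with such scaling the TPM, the floor and the pooled count intervals would be approximate. TPM was approximated from the mean transcript length of the gene in GENCODE, which held 32832 of the 33072 genes. Groups were taken from the labels. The labels do not say whether replicates came from separate cultures, and p-values measure the spread between these samples. Depth was 21715700 to 29450629 estimated counts per sample, and the intervals of pooled count ratios and the floor of 3 counts cover counting error only, whereas confidence intervals of log2 fold changes rest on the spread between samples.

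The members, the lists around them and the tests were chosen with earlier results of these data known. Main tests used limma-voom with TMM normalization (limma 3.58.1, edgeR 4.0.16, R 4.3.3), fitted on all genes of the 8 samples compared, or of 16 for the interaction, where a gene was left out only if it failed the TPM rule in both lines. The method was tested on simulated data. Members left out by the TPM rule were tested with an exact 2-sided permutation test on log2(CPM + 0.5), without adjustment. Alternatives were edgeR's quasi-likelihood test, DESeq2 1.42.0, its size factors, library size only, other filters, 1 fit of all samples, sample quality weights, a threshold of 0.05, leaving out each sample and a replicate block by sets of 4 running sample numbers, which was added after seeing the data. Named besides the members were, from each list, up to 3 genes with the largest change among those called in 4T1 and up to 2 in the interaction, with Irf1, Ifngr1, Ifngr2, Gm12250 and Ifi47, and the 5 nearest in pattern. A further gene that the rule names is not reported here. Promoters were taken from RefSeq and proteins from the coding sequences in GENCODE, and stretches of 31 bases that occur in several genes were counted.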

Additional observations from a re-analysis of the deposited data

Results flagged for a closer look

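The response to CIX differed between the cell lines, by a test of the difference itself, in 5 genes. On the log2 scale the response in 4T1 minus that in 67NR was -2.85 for Gbp2, -3.02 for Gbp3, -2.13 for Irgm1, -3.26 for Irgm2 and -3.16 for Igtp, each at a limma-voom adjusted p-value of at most 0.000817. Of all genes tested, 3.05% were called in this direction. The call of Gbp3 was lost in 14 of 16 fits with a sample left out (limma-voom adjusted p up to 0.00295).

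Within a group of 4 samples, a sample lay far from the other 3 in 4 of 39 sets of a gene and a group (Dixon's test, 95% level). Chance marks about 1 in 20 such sets, which here would be 1.95. Gbp7 was at 32.2 CPM in vehicle treated 4T1 sample 15, and the other 3 samples were at 19.2 to 19.9 CPM. In the same sample, relative to the mean of the other vehicle treated 4T1 samples, Irgm2 was 1.63 times, Gbp9 1.84 times and Irgm1 1.33 times as high, whereas Gbp5 was 0.991 times. Outside the 10 genes described, Irf7 was 1.94 times and Mx2 2.44 times as high in it. Both were named after their values were seen, and Mx2 is one of the other interferon-inducible GTPases listed. Gbp6 was at 0.988 CPM in vehicle treated 4T1 sample 3, and the other 3 were at 1.70 to 1.85 CPM. Iigp1 was marked for single counts, at 0.0445 CPM (1 count) in vehicle treated 67NR sample 5, where the others had none, and at 0.107 CPM (3 counts) in CIX treated 4T1 sample 12, where the others were at 0.0402 to 0.0429 CPM.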

How the results depend on the processing

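The number of GTPase genes called in 4T1 was 5 with limma-voom and 5 to 7 under the alternatives, and Gbp2, Gbp3, Irgm1, Irgm2 and Igtp were called under each of them and without each sample (5 to 6 called). In the interaction it was 5, with 5 to 7 under the alternatives and 4 to 6 without a sample, and between the lines with vehicle it was 6, with 6 to 9 and 5 to 6. In 67NR no gene was called, except that 3 were at a threshold of 0.05, and 0 were without each sample. Between the lines with CIX none was called, except 1 at a threshold of 0.05, 1 by DESeq2 (Gbp2) and 1 without a filter (Gbp7). The direction turned only for differences near 0. For Gbp9 between the lines with CIX (0.03) it was -0.10 with sample quality weights and -0.083 to 0.125 without a sample. For Igtp (0.01) it was -0.016 by library size only, -0.18 with quality weights, -0.014 with a filter of TPM of 1 or more in 4 samples, which was added after seeing the data, and -0.095 to 0.148 without a sample. For Gbp9 in 67NR (0.25) it was -0.016 to 0.41 without a sample. The number of all genes called in 4T1 was 1089, and it was 269 to 975 without a sample, 2523 with quality weights, 2679 with all 16 samples in 1 fit, 3096 by DESeq2 and 4982 at a threshold of 0.05. In 67NR it was 45, with 0 to 75 without a sample and 151, 247, 1038 and 2054 with 1 fit, quality weights, DESeq2 and a threshold of 0.05. In the interaction it was 991, with 652 to 1046 without a sample, 1916 with weights, 1980 by DESeq2 and 3704 at 0.05. Between the lines it was 4420 with vehicle and 7442 at 0.05, and 3755 with CIX, 5751 without a filter and 6980 at 0.05. The cause was not tested. The groups share no replicate number, but the running numbers of the samples pass through the 4 groups in sets of 4, and the labels do not say that a set was handled together. With these sets as a replicate block, chosen after seeing the data, 7 GTPase genes were called in 4T1 (Gbp5 and Gbp9 in addition), 0 in 67NR, 6 in the interaction (Gbp9 in addition), 6 with vehicle and 0 with CIX between the lines. Of all genes 1142 were called in 4T1, 0 in 67NR and 1092 in the interaction. Deviations from the group means correlated within sets at -0.26 to 0.39 (median 0.06, over 0.1 in 7 of 24 pairs), and between sets at a median of -0.03, and 9 of 16 samples correlated best with a sample of their own set. Genes near the floor of 3 counts (Iigp1 and Gbp7 in 67NR, Iigp1 after CIX) allow no statement on small differences.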
